A study of Mus musculus with 8 samples.

Results

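Prmt5 and 3 genes whose products work with it, Wdr77, Clns1a and Riok1, were taken by their symbols among the 39017 genes of the expression table and in the lists of altered splicing events. All 4 genes were found in the expression table and passed its filter on low values, and 3 of the 1918 listed splicing events belonged to them, all in Prmt5. The data are RNA-seq libraries of mouse induced germinal centre-like B cells (iGBs), which are naive splenic B cells grown on irradiated 40LB cells, a fibroblast feeder line that presents CD40L and BAFF, with IL-4 at 1 ng per mL. All mice were C57BL6/J and all carried Cγ1-cre, a Cre recombinase expressed from the Ighg1 locus once the B cells are activated. The 4 Prmt5-null mice also carried 2 floxed Prmt5 alleles, while the 4 control mice carried Cγ1-cre without the floxed alleles. Cells of each mouse were harvested at day 4 by elutriation, which separates them from the feeder cells by size, and each library came from 1 mouse. Because Cre was active only after activation, a Prmt5-null culture could still hold cells or transcripts from before the deletion, and the sources used here do not state which exon the floxed allele removes. Mice in the study were 2 to 4 months old, and both sexes were used.

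Prmt5 is the main enzyme that places symmetric dimethyl marks on arginines of proteins, among them histones and the Sm proteins of the spliceosome. It works in a complex with Wdr77 (also called Mep50), a WD-repeat protein that is its obligate partner and helps to hold substrates. Clns1a (pICln) and Riok1 bind the same site on Prmt5 and bring different substrates to it, Clns1a the Sm proteins and Riok1 proteins such as nucleolin. In activated B cells, Prmt5 is known for its part in proliferation and survival.

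The sequence of Prmt5 exon 7 is shown because its inclusion differed most among the 3 listed events. In GRCm38, Prmt5 (ENSMUSG00000023110) lies on the minus strand at chr14:54507187-54517525, and its 17-exon coding transcript Prmt5-201 has 2691 bases. Exon 7 has 164 bases at chr14:54513291-54513454 and is coding throughout. The first line below gives it in capitals between 20 bases of exon 6 and 20 bases of exon 8, and the second line gives the join of exon 6 to exon 8 up to the first stop codon in frame, which is in capitals. Both were read from the GENCODE M21 transcript on GRCm38, 5′ to 3′.
Exon 6, exon 7, exon 8: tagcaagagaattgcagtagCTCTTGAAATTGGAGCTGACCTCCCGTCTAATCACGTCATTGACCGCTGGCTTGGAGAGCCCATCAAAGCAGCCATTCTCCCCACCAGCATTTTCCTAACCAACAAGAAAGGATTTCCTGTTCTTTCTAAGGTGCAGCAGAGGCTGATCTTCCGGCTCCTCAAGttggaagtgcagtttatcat
Exon 6 joined to exon 8: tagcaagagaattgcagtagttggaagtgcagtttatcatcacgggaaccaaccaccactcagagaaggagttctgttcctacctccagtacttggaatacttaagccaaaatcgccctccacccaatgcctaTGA
Exon 7 touches codons 205 to 259 of the 637 codons of Prmt5-201. Its length leaves 2 bases after division by 3, so a transcript without it changes frame at the join. The first stop codon then follows 38 codons past the join, within exon 8 and 871 bases before the last exon join of the transcript.

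Prmt5 transcripts fell to 13.1% of their control level in Prmt5-null iGBs, the partner gene Wdr77 fell slightly, and the transcripts of the 2 substrate adaptors did not pass the test in either direction. Values are normalized counts, which are reads divided by a size factor for each library. Depth was 42752293 to 47174851 reads on genes in Prmt5-null and 36731721 to 50366174 in control libraries. 

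Prmt5 had 13087 normalized counts in control mouse CTRL-10650, 11084 in CTRL-10370, 11657 in CTRL-10596 and 11267 in CTRL-10597. It had 1291 in Prmt5-null mouse PRMT5-10617, 1994 in PRMT5-10618, 1060 in PRMT5-10770 and 1808 in PRMT5-10771. The groups lay far apart, and the Prmt5-null libraries differed among themselves more than the controls did in relation to their mean, with a coefficient of variation of 28.3% against 7.71%. The means were 11774 ± 908 in control and 1538 ± 436 in Prmt5-null (SD, n = 4), so Prmt5 was 7.65-fold lower by the ratio of the means. Its fold change was the lowest of all 16250 genes tested, at -2.98 on the log2 scale (SE 0.17, limma, adjusted p = 6.14e-06). This reading checks the genotype labels, and every library matched its label. Counts cover all exons of the gene, including any that the deletion leaves in place. In bulk RNA, fewer cells that still express a gene and less RNA per cell cannot be told apart.

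Wdr77 (ENSMUSG00000000561, chr3:105959369-105970037, plus strand) had 5192, 5352, 5931 and 5428 normalized counts in control mice CTRL-10370, CTRL-10596, CTRL-10597 and CTRL-10650. In Prmt5-null mice PRMT5-10617, PRMT5-10618, PRMT5-10770 and PRMT5-10771 it had 4626, 4460, 4541 and 4416. Each Prmt5-null library was below each control library, and the Prmt5-null values were tightly grouped. The means were 5476 ± 319 and 4511 ± 92.5 (SD, n = 4), a fall to 82.4% of the control level. The log2 fold change was -0.28 (SE 0.07, 95% interval -0.43 to -0.13, limma adjusted p = 0.0188), under the 1.5-fold threshold that the study set for a changed gene. A change of this size was not unusual, since 64.1% of the genes tested changed less. The call was lost without Prmt5-null mouse PRMT5-10771 (adjusted p = 0.0651) or without control mouse CTRL-10597 (adjusted p = 0.0617). Wdr77 overlaps Atp5f1 on the opposite strand by 731 bases and lies largely within the span of the noncoding gene Gm42890 on its own strand, and the strand setting of the counting is not given in the sources used here.

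Clns1a (ENSMUSG00000025439, chr7:97696634-97720796, plus strand) had 5643, 4579, 4924 and 5305 normalized counts in control mice CTRL-10370, CTRL-10596, CTRL-10597 and CTRL-10650. In Prmt5-null mice PRMT5-10617, PRMT5-10618, PRMT5-10770 and PRMT5-10771 it had 5936, 5231, 6920 and 5578. The groups overlapped, and the highest value belonged to mouse PRMT5-10770, the mouse with the least Prmt5. The means were 5112 ± 461 and 5916 ± 729 (SD, n = 4). The log2 difference was 0.21 (SE 0.10, 95% interval -0.01 to 0.42, limma adjusted p = 0.183). The interval therefore leaves room for a rise of up to 0.42 and hardly any fall.

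Riok1 (ENSMUSG00000021428, chr13:38036995-38061433, plus strand) had 3509, 3217, 3740 and 3043 normalized counts in control mice CTRL-10370, CTRL-10596, CTRL-10597 and CTRL-10650. In Prmt5-null mice PRMT5-10617, PRMT5-10618, PRMT5-10770 and PRMT5-10771 it had 3420, 3287, 3194 and 3077. All Prmt5-null values lay inside the range of the controls. The means were 3377 ± 309 and 3245 ± 145 (SD, n = 4), with a log2 difference of -0.05 (SE 0.08, 95% interval -0.23 to 0.12, limma adjusted p = 0.704).

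Thus 2 of the 4 genes passed the test, both lower, where 13.8% of all genes tested passed in either direction, 7.33% lower and 6.51% higher. By edgeR and DESeq2 on the recovered reads the same 2 genes passed, against 14.0% and 18.9% of all genes. The values of Prmt5 and of Wdr77 did not overlap between the groups, as was the case for 19.8% of all genes tested. Over all genes tested, the log2 fold changes had a median of 0.00. The fall of Prmt5 is what the genotype was made for, and among the 3 partner genes the called change was that of Wdr77.

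**Figure D1:**
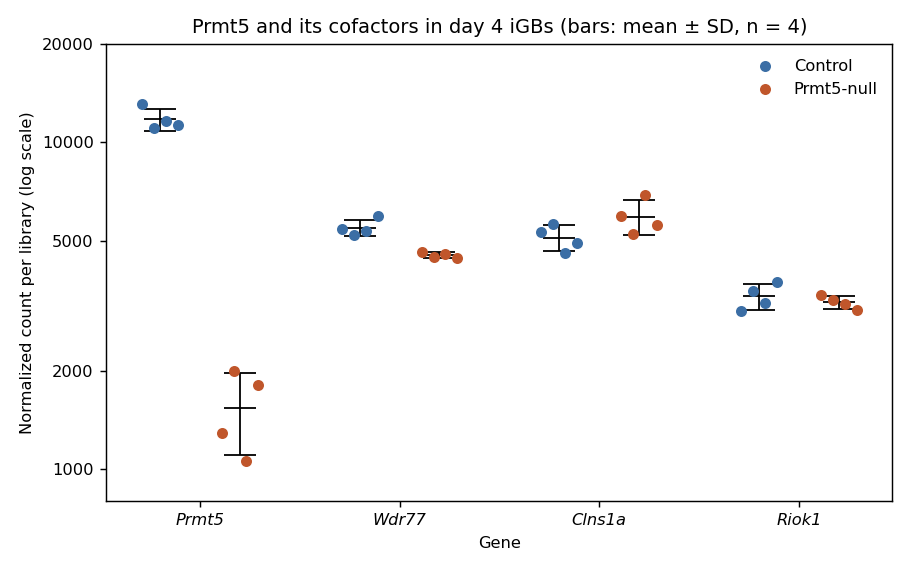
Normalized counts of Prmt5, Wdr77, Clns1a and Riok1 on a log axis, with 1 point per library and bars for the mean ± SD of 4 libraries. The Prmt5-null values of Prmt5 (1060 to 1994) and of Wdr77 (4416 to 4626) lie below all control values, while those of Clns1a and Riok1 overlap the controls.

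Levels of different genes can be compared only per length, so normalized counts were divided by the summed length of all annotated exons of each gene. In control iGBs Prmt5 stood highest at 2975 ± 229 normalized counts per kilobase (SD, n = 4), followed by Clns1a at 1326 ± 120, Wdr77 at 1131 ± 65.9 and Riok1 at 357 ± 32.7. Clns1a and Wdr77 are neighbours in this order whose ranges met, at 1188 to 1463 and 1072 to 1225. The level of Prmt5 was 2.64 ± 0.26 times that of Wdr77 (SD, n = 4). In Prmt5-null iGBs the order changed to Clns1a at 1534 ± 189 per kilobase, Wdr77 at 932 ± 19.1, Prmt5 at 389 ± 110 and Riok1 at 343 ± 15.3. The ranges of Prmt5 (268 to 504) and Riok1 (325 to 362) then overlapped. These ratios depend on which length is used. Over the longest protein-coding transcript, the control levels were 4375 ± 337 for Prmt5, 3399 ± 307 for Clns1a, 1487 ± 86.7 for Wdr77 and 1233 ± 113 for Riok1, in the same order, but with Riok1 much closer to Wdr77. In Prmt5-null libraries that length put Prmt5 last at 572 ± 162, below Riok1 at 1185 ± 53.0, with no overlap.

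Ratios between 2 genes within a library show whether their changes differed, and they do not depend on the size factors. The log2 ratio of Wdr77 to Clns1a in control mice was 0.03 in CTRL-10650, -0.12 in CTRL-10370, 0.23 in CTRL-10596 and 0.27 in CTRL-10597. In Prmt5-null mice it was -0.36 in PRMT5-10617, -0.23 in PRMT5-10618, -0.61 in PRMT5-10770 and -0.34 in PRMT5-10771. The groups did not overlap, and the mean moved from 0.10 to -0.38, a difference of -0.49. The mean ratio of Wdr77 to Riok1 also fell, from 0.70 ± 0.11 to 0.48 ± 0.04 (SD, n = 4), with no overlap. The ratio of Clns1a to Riok1 was 0.60 ± 0.18 in control and 0.86 ± 0.19 in Prmt5-null libraries, which overlapped. The ratios of Prmt5 to its 3 partners differed between the groups by -2.70 for Wdr77, -3.19 for Clns1a and -2.92 for Riok1. By the two-sided exact permutation test over the libraries, p was 0.0286 for 5 of the 6 pairs, the smallest that 4 against 4 can give, and 0.143 for Clns1a to Riok1. Adjusted over the 6 pairs these values were 0.0343 and 0.143. The change of Wdr77 thus differed from that of both adaptors, and the difference between the changes of the 2 adaptors did not pass the test. These permutations ignored the 2 experiments of the study, to which no label ties a library, and no experiment block was tried for the ratios. Each of the 4 genes takes part in several pairs, so the 6 tests share values. The 3 pairs with Prmt5 hold the gene that the genotype was made to lower, so their separation was given by the design. They also entered the adjustment of the pairs with Wdr77, which made it milder. How often the ratios of other gene pairs separate the groups was not examined.

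**Figure D2:**
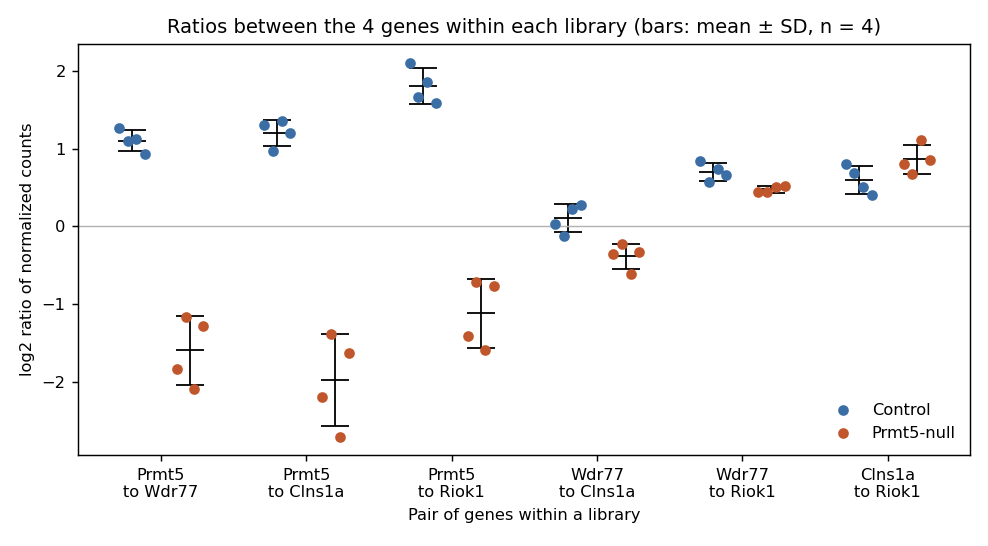
Log2 ratio of normalized counts for the 6 pairs among the 4 genes, with 1 point per library and bars for the mean ± SD of 4 libraries. The Prmt5 ratios lie above 0 in control and below 0 in Prmt5-null libraries, Wdr77 to Clns1a moves from 0.10 to -0.38, and only Clns1a to Riok1 overlaps between the groups.

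The splicing tables held 913 skipped exons, 350 mutually exclusive exons, 337 retained introns, 190 alternative 5′ sites and 128 alternative 3′ sites. They hold only events that passed the authors' thresholds on the same contrast, so the Prmt5 events are a description and the absence of Wdr77, Clns1a and Riok1 says only that no event of theirs is listed. An inclusion level is the share of the reads of an event, adjusted for length, that go with its longer or first form. Each event has 4 such levels per genotype, and the lists name neither their libraries nor their genotype. Which list is control and which Prmt5-null was inferred from the study's description of how its inclusion differences were taken. The reads of the skipped-exon event go with that reading. The list taken as control held 5566 inclusion and 8 skipping reads, and the other list 164 and 241. Prmt5 had a mean of 11774 normalized counts in the named control libraries and 1538 in the named Prmt5-null libraries. Exchanged lists would put more reads of this event in the genotype with less Prmt5. Every direction given for these events rests on that reading and on this match. The intervals given are exact 95% binomial intervals that cover counting error only.

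In the skipped-exon event, the exon 7 shown above was kept at levels of 1.0, 1.0, 0.995 and 0.989 in the control list, from 5566 reads that support its inclusion and 8 that skip it. The Prmt5-null list held 0.153, 0.304, 0.027 and 0.298, from 164 and 241 reads. The lowest of these, 0.027, had an interval of 0.00544 to 0.0787, and the highest, 0.304, one of 0.235 to 0.383. Per read on genes, inclusion reads were 34.4-fold lower in Prmt5-null libraries. Skipping reads numbered 0, 0, 3 and 5 in the control list and 57, 67, 47 and 70 in the Prmt5-null list, too few in control for a stable fold. The 241 skipping reads of the Prmt5-null libraries were few beside the 5566 inclusion reads of the controls. Transcripts would lack exon 7 in the same way if the floxed allele had lost it from the DNA or if splicing had skipped it. The sources used here do not state which exon that allele removes. Whether the change in exon 7 reads came from deletion or from altered splicing was not tested. Multiplying the mean Prmt5 level by the mean inclusion level gives 300.7 normalized counts of Prmt5 with exon 7 in Prmt5-null libraries, which is 2.56% of control. Because the lists do not name their libraries, the highest that any pairing allows is 606 normalized counts in a Prmt5-null library, 5.53% of the lowest that any allows in a control library.

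The mutually exclusive event set exon 7 against exon 8, a 162-base exon that Prmt5-201 holds as well. Because both exons sit in that transcript, the levels of this event are shares of reads. They are not the fraction of transcripts that hold exon 7. Exon 7 took 0.507, 0.46, 0.445 and 0.47 in the control list and 0.065, 0.156, 0 and 0.147 in the Prmt5-null list. The level of 0 rested on 0 of 105 reads, with an interval of 0 to 0.0343. Reads of both forms were fewer in Prmt5-null libraries, with 2992 in control and 79 in Prmt5-null for the exon 7 form (38.4-fold lower per read on genes) and 3351 and 633 for the exon 8 form (5.37-fold lower). The exon 7 form was lower in both events, which share reads over exon 7. Neither event tells an exon removed from the DNA from an exon left out in splicing.

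The retained-intron event concerned intron 2, 305 bases at chr14:54516192-54516496, far upstream of exon 7. Its 2 splice sites are shown as the places where reads that cross the intron or run into it were told apart, again from GENCODE M21 on GRCm38, minus strand. Capitals mark the last 3 exon bases and first 6 intron bases of the donor at chr14:54516479-54516508 and the last 2 intron bases of the acceptor at chr14:54516182-54516211.
Exon 2 donor: tgtcaggaaGGGGTAGGGaccatcccctgt
Exon 3 acceptor: ctcttgggttggggatgcAGactggaatac
The intron was kept at levels of 0.02, 0.017, 0.024 and 0.036 in the control list and 0.286, 0.312, 0.201 and 0.253 in the Prmt5-null list. Reads of the intron form numbered 193 in control and 266 in Prmt5-null libraries, a ratio of 1.36 per read on genes (interval 1.13 to 1.64). That interval pools the reads of each genotype and leaves out differences between mice. The intron form had 43, 37, 52 and 61 reads in the control list. In the Prmt5-null list it had 65, 99, 33 and 69, so the lists overlapped. Spliced reads numbered 2323 in control and 207 in Prmt5-null libraries, 11.4-fold lower per read on genes. The change in spliced reads was thus much larger than that in reads of the intron form.

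**Figure D3:**
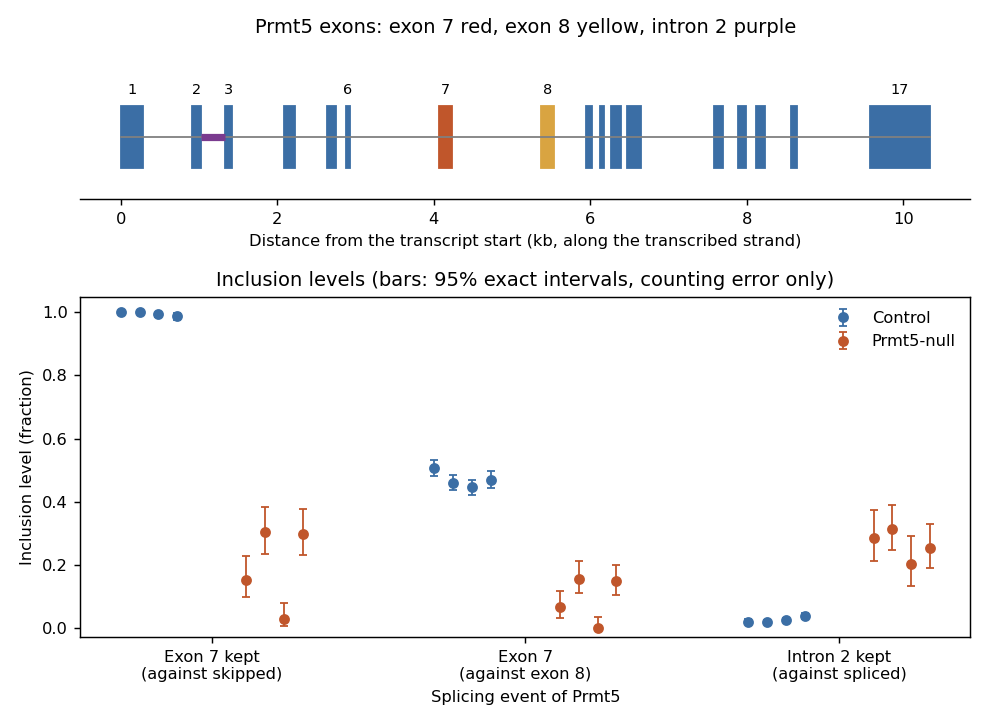
Upper panel, exons of Prmt5-201 by distance in kilobases from the transcript start, with exon 7, exon 8 and intron 2 coloured. Lower panel, inclusion levels of the 3 listed events as deposited, 4 per genotype with exact 95% intervals for counting error, showing exon 7 near 1 in control and at most 0.304 in Prmt5-null, and intron 2 at most 0.036 in control and at least 0.201 in Prmt5-null.

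Of 42 genes tested in the wider pathway, 3 rose, 4 fell and the rest did not pass, so that 16.7% passed against 13.8% of all genes tested. Of 8 other adaptors and chromatin recruiters of Prmt5, 1 rose and 7 did not pass the test, with a median log2 fold change of 0.12. The gene that rose was Dnmt3a, a DNA methyltransferase, from 7814 ± 675 to 9868 ± 714 normalized counts (SD, n = 4), a log2 change of 0.34 (limma adjusted p = 0.0199). That call was lost without Prmt5-null mouse PRMT5-10771, without control mouse CTRL-10370 or without control mouse CTRL-10596 (adjusted p up to 0.0724), and with limma's eBayes without a trend (adjusted p = 0.0544). Smarca4, the chromatin remodelling ATPase, had the highest count of this list, where the highest count means the largest mean normalized count in control libraries, not divided by length. It had 15410 ± 852 and 16714 ± 1205.

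None of the 18 genes of the 2 substrate lists passed limma's test, and among the 5 Sm, Lsm and related genes the median log2 fold change was 0.08. Snrpb, a core Sm protein, had 9725 ± 315 normalized counts in control and 10112 ± 1302 in Prmt5-null libraries (SD, n = 4). Over 13 other proteins reported as Prmt5 substrates the median was 0.01, and Ncl (nucleolin), with the highest count, had 38699 ± 5021 and 40126 ± 8537. By edgeR none of these 18 passed either, while DESeq2 called 1 of them, Coil, the coilin of Cajal bodies (log2 fold change 0.26, limma adjusted p = 0.0665, DESeq2 adjusted p = 0.0283). Coil was also the only 1 of the 18 with an unadjusted limma p under 0.05.

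Among 5 readers of symmetric dimethylarginine, which bind the mark through Tudor domains, 1 rose, 1 fell and 3 did not pass. The shares over all genes tested were 6.51% higher and 7.33% lower. Smndc1, a splicing factor also called SPF30, rose from 2342 ± 292 to 3265 ± 384 normalized counts (SD, n = 4), a log2 change of 0.48 (limma adjusted p = 0.0123). Snd1, a Tudor and nuclease-domain protein with the highest count of the list, fell from 16407 ± 1171 to 12710 ± 632 (log2 -0.37, adjusted p = 0.00798). The median of this list was 0.10. Smn1, the Tudor protein of the SMN complex that loads Sm proteins onto snRNAs, had 648 ± 32.5 and 724 ± 110 (adjusted p = 0.415).

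Of 4 genes that supply the methyl donor S-adenosylmethionine or clear its by-products, 1 fell and 3 did not pass, where 7.33% of all genes fell. The median log2 fold change was -0.24. Mat2a, which makes S-adenosylmethionine and had the highest count of the list, fell from 10760 ± 560 to 8225 ± 606 normalized counts (SD, n = 4), a log2 change of -0.39 (limma adjusted p = 0.00625). Mtap, which clears methylthioadenosine, an inhibitor of Prmt5, had 2669 ± 292 and 2124 ± 252 (log2 -0.33, limma adjusted p = 0.0622). Its DESeq2 adjusted p was 0.0347, so that DESeq2 called 2 of these 4 genes lower, against 18.9% of all genes in either direction.

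Of 8 other arginine methyltransferase genes, 7 were tested, 2 fell, 1 rose and 4 did not pass, with a median log2 fold change of -0.08. Of all genes tested, 13.8% passed, 7.33% lower and 6.51% higher. Prmt9, given under its older symbol Prmt10, fell from 1037 ± 58.2 to 773 ± 53.1 normalized counts (SD, n = 4), a log2 change of -0.42 (limma adjusted p = 0.00798). Prmt3 fell by 0.31 (adjusted p = 0.0221) and Prmt6 rose by 0.28 (adjusted p = 0.0392), calls that were lost in 6 and 7 of the 8 fits that left out 1 library (highest adjusted p = 0.0620 and 0.0875). Prmt3 kept its call without PRMT5-10770 or CTRL-10370, and Prmt6 without PRMT5-10771. Both calls were also lost with limma's eBayes without a trend (adjusted p = 0.0502 and 0.0641), and that of Prmt6 without the filter on low values (adjusted p = 0.0560) and in 8 of 18 placements of an experiment block. The highest counts of the list were those of Prmt7, at 3571 ± 238 in control and 3408 ± 677 in Prmt5-null libraries, and Prmt1, at 3516 ± 286 and 3799 ± 497, whose order differed between the groups. Prmt8 had at most 2 reads in any library.

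**Figure D4:**
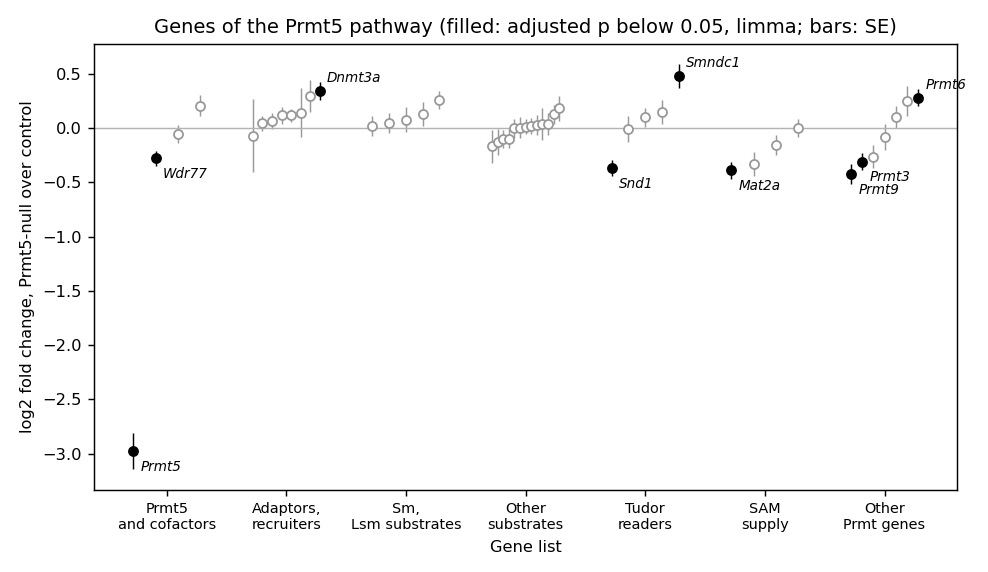
Log2 fold change, Prmt5-null over control, of each tested gene in 7 lists, with bars for the SE; filled points passed limma's adjusted p threshold of 0.05. Outside Prmt5 at -2.98, all points lie between -0.42 and 0.48.

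The cells carried the transcripts of B cells. Of 7 B cell markers, Ms4a1, which encodes CD20, had the highest count in control libraries at 46741 ± 3126 normalized counts, with 43984 ± 7881 in Prmt5-null libraries (SD, n = 4). Of the 7, 1 fell, Cd79a of the antigen receptor (log2 -0.74, limma adjusted p = 0.000327), and 6 did not pass, where 13.8% of all genes tested passed and 7.33% were lower. Of 4 germinal centre-like markers, 1 fell, 1 rose and 2 did not pass, where 7.33% of all genes tested were lower and 6.51% higher. S1pr2 fell by 0.71 (limma adjusted p = 0.00486) and Fas rose by 0.47 (adjusted p = 0.00504). Of 4 plasma cell markers 1 fell, against the same 7.33% of all genes, Xbp1, which also had the highest count (log2 -0.45, limma adjusted p = 0.0305). That call was lost in 6 of the 8 fits that left out 1 library (adjusted p up to 0.0905), with eBayes without a trend (adjusted p = 0.0798) and in 2 of the 18 block placements. DESeq2 called 2 of the 4 plasma cell markers lower, against 18.9% of all genes in either direction. Ighg1, whose locus carries the Cre, had 38524 ± 2126 and 45384 ± 3722 (log2 0.23, limma adjusted p = 0.0945, DESeq2 adjusted p = 0.0366). Of 6 T cell markers, Cd3e was at 0 in every library, Trac had the highest count and was the only one with enough reads to test, and the list summed to at most 41.5 normalized counts in any library.

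Several markers of fibroblasts, the cell type of the feeders, were higher in Prmt5-null libraries. Of 10 fibroblast markers, 8 were tested and 3 rose in Prmt5-null libraries, where 6.51% of all genes tested rose. They were Col3a1 by 1.02, Sparc by 0.83 and Col1a2 by 0.72 on the log2 scale, with a median over the 8 of 0.79, and Postn had at most 4 reads and Lum at most 14. By edgeR 3 of the 8 were called higher and by DESeq2 5, where DESeq2 called 18.9% of all genes in either direction. The calls of Col1a2 and Sparc were lost in 3 and 6 of the 8 fits that left out 1 library and with limma's eBayes without a trend (adjusted p = 0.0694 and 0.0895), that of Sparc also in 5 of the 18 block placements, and that of Col3a1 in none of these. The summed level of the 10 was 9449 normalized counts in Prmt5-null mouse PRMT5-10617, 5399 in PRMT5-10618, 7986 in PRMT5-10770 and 6785 in PRMT5-10771. In control mice it was 6008 in CTRL-10650, 3372 in CTRL-10370, 4146 in CTRL-10596 and 4861 in CTRL-10597. The sum overlapped through Prmt5-null mouse PRMT5-10618, which had the lowest fibroblast sum of its group. The gene with the highest count, Col1a2, had 1666 ± 318 in control and 2783 ± 745 in Prmt5-null libraries (SD, n = 4). Of 5 myeloid markers, 3 were tested and 1 rose, against the same 6.51% of all genes, Adgre1, also with the highest count (log2 0.70, limma adjusted p = 0.0424). That call was lost in 6 of the 8 fits that left out 1 library (adjusted p up to 0.103), in 6 of the 18 block placements, without the filter on low values (adjusted p = 0.0625), with quantile normalization (0.0530) and with eBayes without a trend (0.0617). The myeloid list summed to 171 to 298 in Prmt5-null and 104 to 215 in control libraries. How much of the remaining Prmt5, or of the Wdr77 change, goes with feeder RNA was not tested.

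In the annotation used here, the only gene within 25 kb of Prmt5 was Haus4, a subunit of the augmin complex, 24260 bases away on the same strand. It had 3541 normalized counts in control and 3066 in Prmt5-null libraries (log2 -0.21, limma adjusted p = 0.0781). The genes most like each member were those with the smallest root mean square difference in log2 values, each set against its own control mean, over the 8 libraries and 13300 genes with a mean above 50. For Wdr77 these were Dph5 (0.0352), Cep68 (0.0486) and Rbpj (0.0496). For Clns1a they were Pmpcb (0.0332), Paics (0.0378) and Pnkd (0.0383), and for Riok1 they were Lin9 (0.0323), Gtl3 (0.0325) and 8030462N17Rik (0.0421). No gene came as close to Prmt5, whose nearest were Egr1 (0.814), Enam (0.898) and Pycr1 (0.908).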

How the data were processed

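RNA-seq libraries of day 4 iGBs from 4 Prmt5-null and 4 control mice were compared. The authors trimmed reads with Trimmomatic 0.32, aligned them with STAR 2.3.0e, counted them per Ensembl gene with featureCounts 1.4.4 and deposited the normalized signal, counts divided by a DESeq2 1.14.1 size factor. The strand setting of the counting is not given in the sources used here. All deposited values were whole multiples of the worth of 1 read (100% of values, relative tolerance 1e-06), so reads were recovered. The authors also deposited rMATS inclusion levels and reads of splicing events selected on the same contrast. Their columns of p-values and FDR values were not used. The column of differences served only to see which list is subtracted from which, and with the study's legend this gave the genotype of each list. None of its values is reported.

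Genes with a mean of at least 10 (16250 of 39017) were log2-transformed after adding a pseudocount of 1, the scale of all fold changes given. Genotypes were compared with limma 3.58.1 (eBayes with trend, R 4.3.3), and p-values were adjusted over all genes tested by the Benjamini-Hochberg method. A call is an adjusted p below 0.05. edgeR 4.0.16 and DESeq2 1.42.0 on the recovered reads, another pseudocount, filter and scaling, and leaving out each library were alternatives. Ratios within a library were compared by exact permutation tests (SciPy 1.17.1). Annotation and transcript sequences were GENCODE M21 on GRCm38.

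The 4 genes and all lists were chosen with earlier results of these data known. List genes are named where the adjusted p was below 0.05, at most the 4 largest changes per list, along with the gene of each list with the highest mean normalized count in control libraries. Some listed items are not reported here. Coil, Prmt1, Smn1, Mtap, Lum, Postn, Cd3e and Prmt8 are named besides, having been picked once their values were known. The study had 2 experiments with 2 mice of each genotype in each, but no label ties a library to an experiment. A block was therefore tried in all 18 possible placements for the tests of single genes, and not for the ratios.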

Additional observations from a re-analysis of the deposited data

How the results depend on the processing

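Prmt5, Clns1a and Riok1 kept their direction and their side of the threshold under all alternatives. Leaving out 1 library at a time gave log2 fold changes of -3.12 to -2.81 for Prmt5, 0.13 to 0.26 for Clns1a, -0.10 to 0.00 for Riok1 and -0.30 to -0.24 for Wdr77. Wdr77 lost its call in 2 of these 8 fits, with adjusted p from 0.0203 to 0.0651, and kept it under the 11 other alternatives (adjusted p 0.00143 to 0.0446). Over the 18 placements of an experiment block its adjusted p was 0.0129 to 0.0374. The number of genes called was 2249, but 971 at an adjusted p below 0.01, and 1374 to 2371 with 1 library left out, lowest without Prmt5-null mouse PRMT5-10771. The level of Prmt5 per kilobase in control libraries was 2.64, 2.26 and 8.42 times that of Wdr77, Clns1a and Riok1 over all exons. Over the longest transcript it was 3.43, 2.58 and 3.59, and over the longest protein-coding transcript, chosen after seeing the data, 2.95, 1.29 and 3.59. Among list genes, whose alternatives were also added after seeing the data, Col1a2 lost its call without PRMT5-10617, CTRL-10370 or CTRL-10596, while Sparc kept it only without PRMT5-10618 or CTRL-10650, Adgre1 only without PRMT5-10617 or CTRL-10650, and Xbp1 only without PRMT5-10618 or CTRL-10370, among the 8 leave-one-out fits (adjusted p up to 0.0610, 0.103, 0.103 and 0.0905). No paired analysis was possible because the mouse numbers of the 2 genotypes are not shared. Depth did not limit the 4 genes, each with at least 980 reads in every library, but the splicing lists rest on as few as 50 reads.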
